A study of Homo sapiens with 8 samples.

Results

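Integrins are the adhesion receptors with which white blood cells grip vessel walls, other cells and the extracellular matrix, and 10 genes that encode leukocyte integrin chains were followed across 8 poly(A) RNA libraries of human acute myeloid leukaemia cells. The genes were taken by name from the deposited table of TPM, a length-scaled share of the transcripts of a library: ITGAL, ITGAM, ITGAX and ITGB2, then ITGA4, ITGA5, ITGA6 and ITGB1, then ITGAE and ITGB7. All 10 were among the 26830 genes listed. The rule that picks them goes by name and not by a measured value, but the list was drawn up with earlier results of these data known. The samples were NOMO-1 and MOLM-13 cells, established lines that carry an MLL fusion gene. In each line, cells transduced with lentivirus carrying 1 short hairpin RNA against the m6A demethylase gene ALKBH5 (shALKBH5) were set against cells transduced with the control hairpin shNS, with 2 libraries in each of the 4 groups (n = 2 throughout). The series text gives puromycin selection for 4 days, whereas the sample protocols give 1 week and describe virus against FTO and drug treatments, none of which is a group here. A single hairpin was used. Whether the 2 libraries of a group are separate cultures is not stated, and the p-values therefore cover the spread of these libraries, which may be technical.

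An integrin is a pair of an alpha and a beta chain, both spanning the membrane, and the alpha chain largely decides which ligand is bound. The beta2 chain (ITGB2, CD18) is restricted to leukocytes and pairs with alphaL (ITGAL, CD11a) in LFA-1, with alphaM (ITGAM, CD11b) in Mac-1 and with alphaX (ITGAX, CD11c). These receptors bind ICAM proteins and, for alphaM and alphaX, complement fragments and fibrinogen. The beta1 chain (ITGB1, CD29) pairs with alpha4 (ITGA4, CD49d), a receptor for VCAM1 and fibronectin that holds blasts to marrow stroma, with alpha5 (ITGA5, CD49e), a fibronectin receptor, and with alpha6 (ITGA6, CD49f), a laminin receptor. The beta7 chain (ITGB7) pairs with alpha4 for homing to gut through MADCAM1, or with alphaE (ITGAE, CD103), which binds E-cadherin on epithelium and marks lymphocytes that live in tissue.

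TPM values carry no depth, and none can be given. ALKBH5 itself stood at 15.1 and 14.2 TPM in NOMO-1 shALKBH5, against 70.4 and 71.8 TPM in NOMO-1 shNS, and at 9.45 and 7.35 TPM in MOLM-13 shALKBH5, against 45.7 and 45.8 TPM in MOLM-13 shNS. The MOLM-13 shALKBH5 libraries stood apart from each other: over 8804 genes averaging 10 TPM or more, the log2 gap between a pair of libraries had an SD of 0.53 on the log2(TPM + 1) scale there, against 0.133 to 0.184 in the other groups. Their median-of-ratios factors, a measure of the level of a typical gene, were 0.849 in replicate 1 and 0.651 in replicate 3, against 0.912 in each MOLM-13 shNS library. Of the 10 markers of the labelled cell type, PTPRC, SPI1, CD33 and CEBPA stood at 64.5 TPM or more in every library, while the progenitor markers CD34 and KIT reached at most 0.82 and 1.54 TPM. FLT3 stood at 98.3 and 39.1 TPM in MOLM-13 shALKBH5, against 238 and 229 TPM in MOLM-13 shNS, and at 0.55 TPM or less in every NOMO-1 library. The granule gene MPO stood at 19.3 and 16.4 TPM in MOLM-13 shALKBH5, against 384 and 456 TPM in MOLM-13 shNS, and at 0.48 TPM or less in every NOMO-1 library. The T cell gene LCK, the B cell gene MS4A1, the epithelial genes EPCAM and KRT19, the platelet gene PF4 and the stromal and endothelial genes COL3A1 and CDH5 were listed at 0 in all 8 libraries. Of the T cell list, CD2 (up to 8.63 TPM) and CD4, which monocytes also carry (up to 181 TPM), reached 1 TPM in at least 2 libraries. The B cell list had 2 of 6 at that level, led by PAX5, at up to 6.87 TPM. The NK cell list had 3 of 5 at that level, led by NKG7, at up to 377 TPM. The megakaryocyte list had 2 of 6, led by GP1BA, at up to 12.5 TPM. The epithelial list had 1 of 5, with no gene above 1.62 TPM (KRT8). The fibroblast and endothelial list had 1 of 7, PECAM1, which myeloid cells also carry, at up to 101 TPM.

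ITGB2 was the most abundant member in all 4 groups, and the lines differed in which chains followed it. By mean TPM the order in NOMO-1 shALKBH5 was ITGB2 (418), ITGA5 (356), ITGB1 (295), ITGA6 (166), ITGA4 (116), ITGAL (14.3), ITGAX (8.93), ITGAM (8.76), ITGAE (7.38) and ITGB7 (0.66). In NOMO-1 shNS it was ITGB2 (442), ITGB1 (300), ITGA5 (255), ITGA6 (234), ITGA4 (199), ITGAL (16.8), ITGAM (8.3), ITGAE (7.8), ITGAX (5.2) and ITGB7 (0.275). Neighbours in these orders did not overlap between libraries, except ITGAX with ITGAM and ITGAM with ITGAE in NOMO-1 shALKBH5, and ITGAM with ITGAE in NOMO-1 shNS. In MOLM-13 shALKBH5 the order was ITGB2 (324), ITGAL (128), ITGA5 (102), ITGB1 (81.8), ITGA4 (53.9), ITGB7 (27.7), ITGA6 (12.8), ITGAM (11.1), ITGAX (8.53) and ITGAE (4.14). In MOLM-13 shNS it was ITGB2 (303), ITGAL (141), ITGB1 (119), ITGA4 (90.8), ITGA5 (50), ITGB7 (20.3), ITGAM (17.1), ITGAE (4.9), ITGAX (3.59) and ITGA6 (1.94). Here the overlapping neighbours were ITGB7 with ITGA6, ITGA6 with ITGAM and ITGAM with ITGAX, all in MOLM-13 shALKBH5. ITGA5 thus stood above ITGB1 in both knockdown groups and below it in both control groups. No member was listed at 0 anywhere, and all but ITGB7 stood at 1 TPM or more in all 8 libraries.

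**Figure D1:**
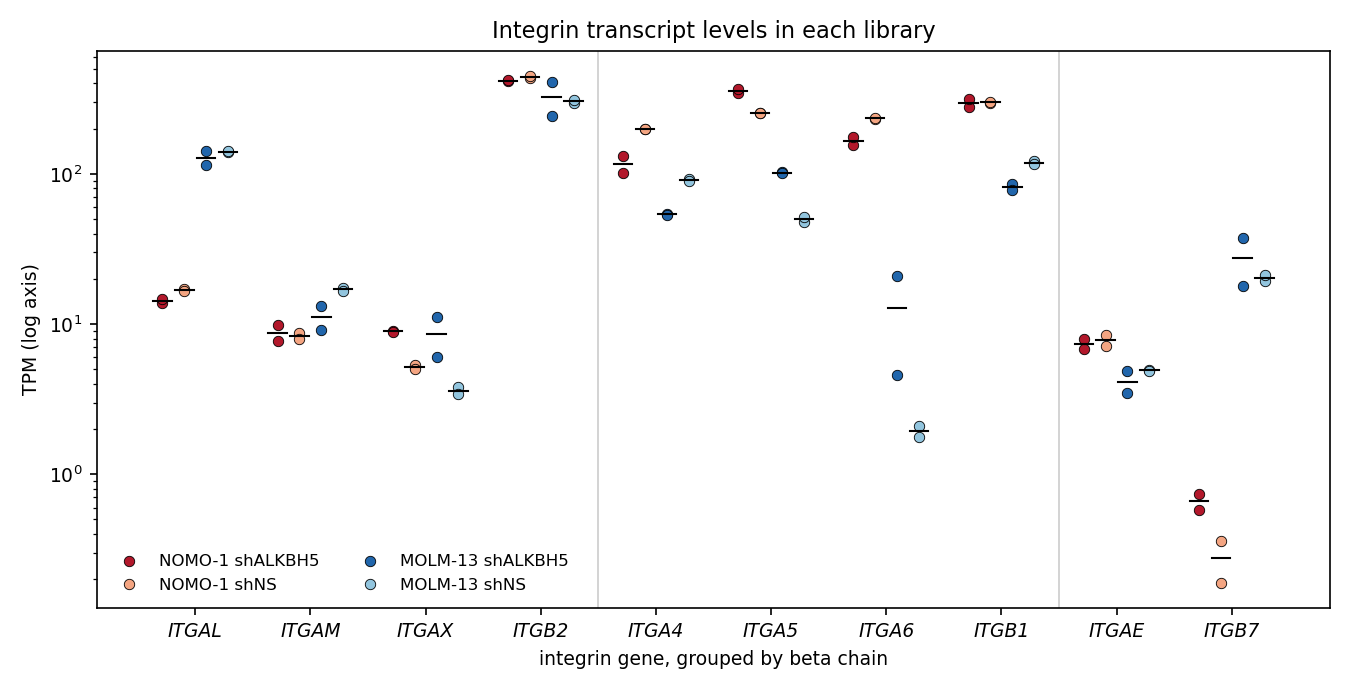
TPM of the 10 integrin genes on a log axis, with 1 point per library and a bar at the mean of each group of 2 libraries. ITGA5 lies higher and ITGA4 lower in shALKBH5 than in shNS in both lines, and ITGA6 and ITGB7 separate the lines.

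The knockdown comparisons ask which integrin chains changed when ALKBH5 was lowered. All 10 members passed the filter of at least 1 TPM in at least 2 libraries and were tested with 14302 genes in 1 limma fit on log2(TPM + 1), with Benjamini-Hochberg adjustment over all genes and a threshold of 0.05. Alternatives that leave out 1 library judge a lone library by the spread of the other groups. Without a MOLM-13 shALKBH5 library, the group with the widest spread no longer counts towards it, so passing in such a fit is no support. In NOMO-1, 2 of the 10 members passed, ITGA5 higher and ITGA4 lower, whereas 43.6% of all genes tested passed (28.6% higher and 15% lower). In MOLM-13, 6 of the 10 passed, ITGA5, ITGA6 and ITGAX higher and ITGA4, ITGB1 and ITGAM lower, beside 41.8% of all genes (10.6% higher and 31.2% lower). The libraries of shALKBH5 and shNS did not overlap for 7 of the 10 members in NOMO-1 (3 higher and 4 lower), against 82.6% of all genes (52.1% higher and 30.5% lower). In MOLM-13 this was also 7 of the 10 (3 higher and 4 lower), against 67.5% of all genes (21.3% higher and 46.2% lower). On 10 genes these shares are a description, and a departure from the background was not tested. The members' median log2 fold change was -0.05 in NOMO-1 and -0.05 in MOLM-13, against 0.16 and -0.18 for all genes tested. Rescaling the libraries by median of ratios moved these medians of all genes to 0.00 and 0.03, and small member changes are to be read against that shift. With that scaling 3320 genes passed as higher and 3699 as lower in NOMO-1, against 4097 and 2145 unscaled. In MOLM-13 they were 3483 and 3787, against 1513 and 4459 unscaled, and the members that passed there with that scaling were 4 higher and 1 lower. In bulk RNA, fewer cells of a type and less RNA per cell cannot be told apart.

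**Figure D2:**
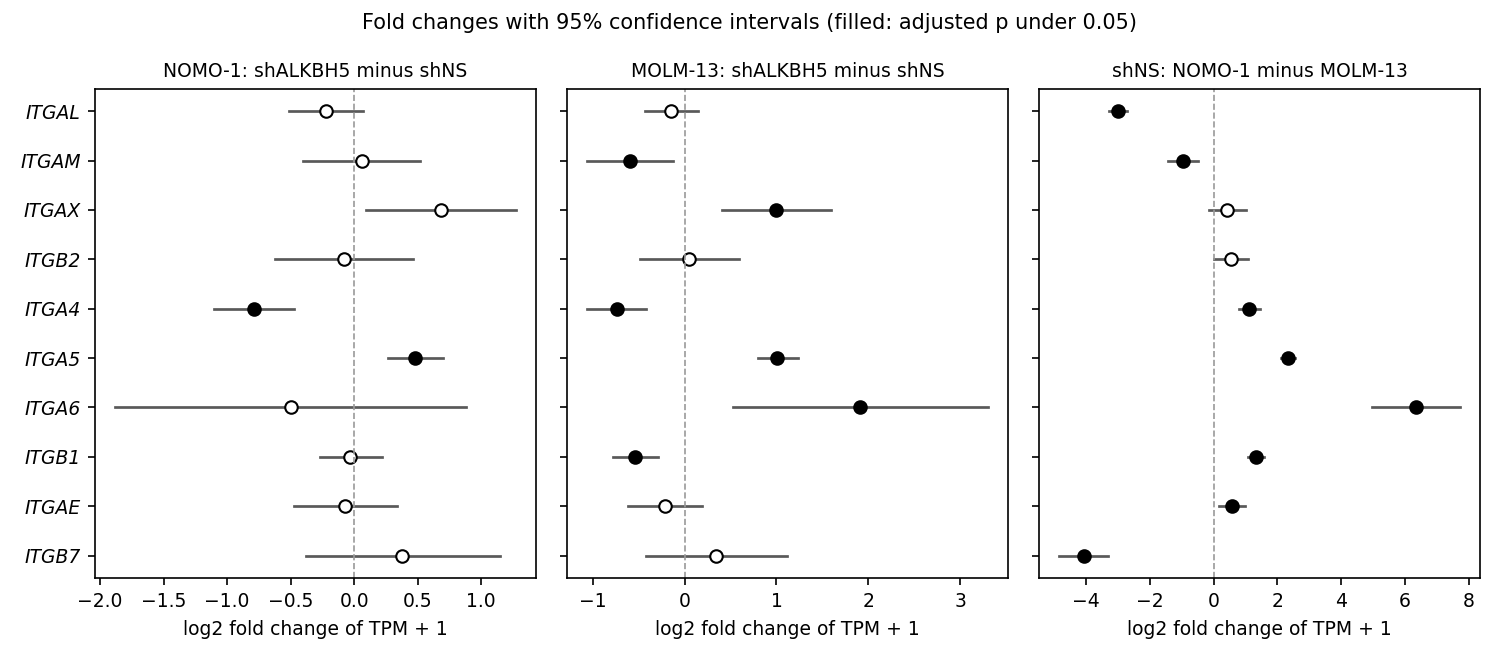
Fold changes of the 10 members on the log2(TPM + 1) scale with 95% confidence intervals, for the knockdown in NOMO-1 (left), the knockdown in MOLM-13 (middle) and NOMO-1 shNS minus MOLM-13 shNS (right). Filled points passed the adjusted p threshold: 2 members in NOMO-1, 6 in MOLM-13 and 8 between the controls.

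The fibronectin receptor chain ITGA5 (chromosome 12, 54395261 to 54419460, GRCh38, minus strand) was the member that passed as higher in both lines. ITGAX, below, also lay above both controls in each line but passed in MOLM-13 only. It stood at 343 and 369 TPM in NOMO-1 shALKBH5, against 255 and 254 TPM in NOMO-1 shNS (log2 fold change 0.48, SE 0.09, limma adjusted p = 0.0065). In MOLM-13 it stood at 103 and 101 TPM in shALKBH5, against 48 and 52 TPM in shNS, 2.04 times higher by group mean (1.01, SE 0.09, adjusted p = 0.00061). The groups did not overlap in either line, and the MOLM-13 shALKBH5 libraries, which differ widely for other members, were close together here. The rise was larger in MOLM-13: the difference of the effects (NOMO-1 minus MOLM-13) was -0.53 (SE 0.13, adjusted p = 0.022). With median-of-ratios scaling this difference was -1.04 and with quantile scaling -0.87, and it missed the threshold without any 1 of the NOMO-1 or MOLM-13 shNS libraries (adjusted p = 0.065 to 0.11). The NOMO-1 call ended with median-of-ratios scaling (0.26, adjusted p = 0.1) and without either shNS library or shALKBH5 replicate 3 (adjusted p = 0.053 to 0.056), whereas the MOLM-13 call passed in all 16 alternatives.

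ITGA4 (chromosome 2, 181457202 to 181536187), the alpha chain of VLA-4 and of the gut homing receptor, fell in both lines. It stood at 101 and 131 TPM in NOMO-1 shALKBH5, against 200 and 199 TPM in shNS, and at 54.3 and 53.6 TPM in MOLM-13 shALKBH5, against 92.5 and 89.2 TPM in shNS. The knockdown libraries lay below the controls in each line, 1.72 times lower by group mean in NOMO-1 and 1.68 times lower in MOLM-13. The log2 fold change was -0.79 for NOMO-1, with an SE of 0.13 and an adjusted p of 0.0045, and -0.74 for MOLM-13, with an SE of 0.13 and an adjusted p of 0.0064. Their difference was -0.05, with a 95% interval of -0.50 to 0.40, and did not pass (adjusted p = 0.87). The NOMO-1 call passed in all 16 alternatives and the MOLM-13 call in 14 of 16, missing with quantile scaling (-0.44, adjusted p = 0.055) and without shNS replicate 1 (-0.72, adjusted p = 0.054). Median-of-ratios scaling gave -0.45 in MOLM-13 and kept the call (adjusted p = 0.043).

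ITGA6 (chromosome 2, 172427354 to 172506282), the laminin receptor chain, was high in NOMO-1 and low in MOLM-13 controls. It stood at 21 and 4.55 TPM in MOLM-13 shALKBH5, against 2.1 and 1.77 TPM in MOLM-13 shNS (log2 fold change 1.91, SE 0.57, adjusted p = 0.037). Both knockdown libraries lay above both controls there, but replicate 1 carried most of the rise. The call ended in 8 of 16 alternatives, among them MOLM-13 fitted alone (adjusted p = 0.1) the removal of any NOMO-1 library (adjusted p = 0.069 each) and the removal of either MOLM-13 shNS library (0.13 and 0.15). With replicate 1 removed the log2 fold change was 0.92, and with replicate 3 removed it was 2.91, each resting on a lone knockdown library. In NOMO-1, ITGA6 stood at 155 and 177 TPM in shALKBH5, against 233 and 235 TPM in shNS, again without overlap but in the other direction. That change did not pass (-0.50, 95% interval -1.88 to 0.88, adjusted p = 0.53). Its test pools the spread over all groups, and the same change passed with NOMO-1 fitted alone (adjusted p = 0.0027) and without MOLM-13 shALKBH5 replicate 1 (0.0033) or replicate 3 (0.0032). The difference between the lines (-2.41, SE 0.81) missed the threshold with an adjusted p of 0.061. It passed in 5 of 15 alternatives, with values of -3.41 to -1.42 over all 15, and -1.42 without MOLM-13 shALKBH5 replicate 1.

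ITGB1 (chromosome 10, 32900319 to 33005792, minus strand), the common partner of these 3 chains, fell in MOLM-13. It stood at 85.8 and 77.8 TPM in MOLM-13 shALKBH5, against 122 and 116 TPM in shNS (log2 fold change -0.54, SE 0.10, adjusted p = 0.0081). The NOMO-1 groups overlapped, at 277 and 313 TPM in shALKBH5, against 296 and 303 TPM in shNS (-0.03, 95% interval -0.27 to 0.22, adjusted p = 0.88). The difference between the lines was 0.51 (SE 0.14, adjusted p = 0.037). Median-of-ratios scaling ended both calls: the MOLM-13 change became -0.24 (adjusted p = 0.073) and the difference 0.00. The MOLM-13 call also ended with quantile scaling (-0.23), with MOLM-13 fitted alone (adjusted p = 0.07) and without shNS replicate 1 (0.069) or replicate 3 (0.051). The difference also missed with quantile scaling (0.17) and without any 1 of the NOMO-1 or MOLM-13 shNS libraries (adjusted p = 0.064 to 0.14). A median gene fell by 0.18 in MOLM-13 on the unscaled values.

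Ratios between chains of 1 library do not depend on how libraries are scaled, and TPM is per length, so levels of different chains can be set side by side. The summed TPM of ITGA4, ITGA5 and ITGA6 over that of ITGB1 was 2.16 and 2.16 in NOMO-1 shALKBH5, against 2.33 and 2.26 in NOMO-1 shNS. In MOLM-13 this ratio was 2.08 and 2.04 in shALKBH5, against 1.17 and 1.23 in shNS, so that the knockdown libraries of MOLM-13 had nearly the NOMO-1 value. ITGA5 over ITGA4 was 3.4 and 2.82 in NOMO-1 shALKBH5, against 1.28 and 1.28 in shNS, and 1.9 and 1.88 in MOLM-13 shALKBH5, against 0.519 and 0.583 in shNS. ITGA5 supplied 57.3% and 54.5% of the summed TPM of the 3 alpha chains in NOMO-1 shALKBH5, against 37.1% and 36.9% in shNS. In MOLM-13 its share was 57.9% and 63.4% in shALKBH5, against 33.6% and 36.4% in shNS. ITGA4 supplied 64.9% and 62.4% in MOLM-13 shNS and was the leading alpha chain there. In MOLM-13 shALKBH5 its share was 30.4% and 33.8%. These ratios are given as a description and were not tested.

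**Figure D3:**
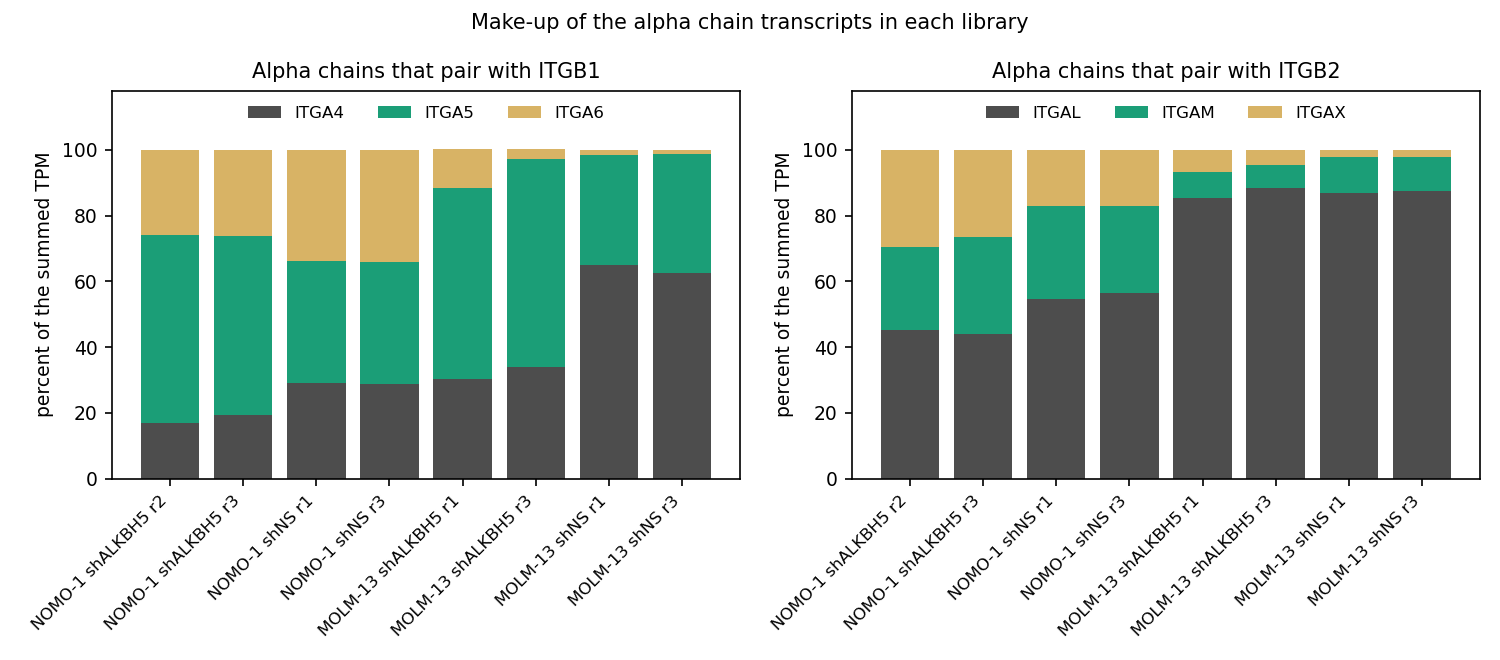
Share of each alpha chain in the summed TPM of the beta1 partners ITGA4, ITGA5 and ITGA6 (left) and of the beta2 partners ITGAL, ITGAM and ITGAX (right), in percent, with 1 bar per library (r2 is replicate 2). ITGA5 takes 54.5% to 63.4% in the shALKBH5 libraries and 33.6% to 37.1% in the shNS libraries, and ITGAL takes at least 85.3% in every MOLM-13 library.

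Among the beta2 integrins, ITGAX (chromosome 16, 31355134 to 31382997), a marker of macrophages and dendritic cells, had the clearest difference. It stood at 11.1 and 5.99 TPM in MOLM-13 shALKBH5, against 3.78 and 3.41 TPM in shNS, and rose by 1.00 on the log2 scale (SE 0.24, adjusted p = 0.019). The groups did not overlap, replicate 1 lay highest, and the call ended with MOLM-13 fitted alone (adjusted p = 0.079) and without either shNS library (0.08 and 0.1). With replicate 1 left out the value was 0.61 and with replicate 3 left out 1.39, each resting on a lone knockdown library. In the NOMO-1 libraries ITGAX was at 9.02 and 8.85 TPM in shALKBH5, against 5.35 and 5.04 TPM in shNS. These groups did not overlap either, but the change missed the threshold (0.68, 95% interval 0.09 to 1.27, adjusted p = 0.064). It passed in 6 of 16 alternatives. These were median-of-ratios scaling, quantile scaling, NOMO-1 fitted alone (0.0014), the replicate block in MOLM-13 and the removal of either MOLM-13 shALKBH5 library. Of the 10 monocyte markers, 8 of which reached 1 TPM in at least 2 libraries, 6 lay above both controls and 3 below both in both NOMO-1 shALKBH5 libraries, and 3 above and 4 below in MOLM-13. Of all genes tested, 52.1% lay above and 30.5% below in NOMO-1, and 21.3% and 46.2% in MOLM-13, so these counts were near the background. The summed level of the monocyte markers was 3096 to 3274 TPM in NOMO-1 shALKBH5, against 1093 to 1153 TPM in shNS, and 14557 to 20977 TPM in MOLM-13 shALKBH5, against 11348 to 11930 TPM in shNS, and LYZ was the most abundant. Without LYZ the other 9 summed to 1742 and 1589 TPM in NOMO-1 shALKBH5, against 629 and 653 TPM in shNS, but to 1714 and 2436 TPM in MOLM-13 shALKBH5, against 2804 and 2855 TPM in shNS. S100A9 stood at 553 and 979 TPM in MOLM-13 shALKBH5, against 1461 and 1520 TPM in shNS. CD14 stayed under 0.5 TPM and VCAN at 0 in NOMO-1. The part of these markers in the ITGAX result was not tested.

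ITGAM (chromosome 16, 31259967 to 31332892), the alpha chain of Mac-1, lies next to ITGAX on the same strand with 22.2 kb between the genes, and changed in the other direction in MOLM-13. It stood at 13.2 and 9.09 TPM in MOLM-13 shALKBH5, against 17.4 and 16.7 TPM in shNS, and fell by 0.59 on the log2 scale (SE 0.19, adjusted p = 0.048). This call ended in 12 of 16 alternatives, including the removal of any library but MOLM-13 shALKBH5 replicate 1, with adjusted p up to 0.18. Median-of-ratios scaling gave -0.32, quantile scaling -0.25, and the removal of shALKBH5 replicate 3 -0.35. For NOMO-1 they overlapped, at 7.7 and 9.81 TPM in shALKBH5, against 8.71 and 7.9 TPM in shNS (0.06, 95% interval -0.40 to 0.52, adjusted p = 0.84). The ratio of ITGAX to ITGAM was higher in every knockdown library: 1.17 and 0.902 in NOMO-1 shALKBH5, against 0.614 and 0.638 in shNS, and 0.839 and 0.659 in MOLM-13 shALKBH5, against 0.217 and 0.204 in shNS. ITGAD, the next gene of this cluster, 10.3 kb beyond ITGAX, stayed under 0.1 TPM in all 8 libraries.

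ITGAL (chromosome 16, 30472658 to 30523185), the LFA-1 alpha chain, passed in neither line. It stood at 13.8 and 14.7 TPM in NOMO-1 shALKBH5, against 17 and 16.7 TPM in shNS (-0.22, 95% interval -0.51 to 0.07, adjusted p = 0.18), and passed in 5 of 16 alternatives, with median-of-ratios scaling at -0.42 (adjusted p = 0.0013). It also passed without MOLM-13 shALKBH5 replicate 1 or replicate 3 (0.0061 each). In MOLM-13 it stood at 141 and 114 TPM in shALKBH5, against 140 and 141 TPM in shNS (-0.15, 95% interval -0.43 to 0.14, adjusted p = 0.38). Without replicate 1 it was -0.30, resting on replicate 3 alone.

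ITGB2 (chromosome 21, 44885953 to 44931989, minus strand), the common beta2 chain, also passed in neither line. It stood at 413 and 422 TPM in NOMO-1 shALKBH5, against 437 and 448 TPM in shNS (-0.08, 95% interval -0.62 to 0.46, adjusted p = 0.81). In MOLM-13 it stood at 406 and 243 TPM in shALKBH5, against 298 and 309 TPM in shNS, with 1 knockdown library above both controls and 1 below (0.05, 95% interval -0.49 to 0.59, adjusted p = 0.89). Which library was kept decided the sign: without replicate 3 the value was 0.42 and without replicate 1 it was -0.32. ITGB2-AS1, a noncoding gene that lies inside ITGB2 on the other strand, was split in the same way, at 14.9 and 4.31 TPM in MOLM-13 shALKBH5, against 7.08 and 6.63 TPM in shNS. The kit keeps strand but the strand setting used for counting is not stated, so reads of these overlapping genes may not have been told apart. The beta2 alpha chains together came to 0.0739 and 0.0791 of the ITGB2 level in NOMO-1 shALKBH5, against 0.0709 and 0.0662 in shNS. In MOLM-13 they came to 0.408 and 0.533 in shALKBH5, against 0.542 and 0.521 in shNS. ITGB2 transcripts therefore outnumbered those of its 3 listed partners in every library.

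The beta7 chain ITGB7 (chromosome 12, 53191318 to 53207307, minus strand) was split between the MOLM-13 knockdown libraries like ITGB2. It stood at 37.6 and 17.8 TPM in MOLM-13 shALKBH5, against 19.4 and 21.2 TPM in shNS (0.34, 95% interval -0.42 to 1.11, adjusted p = 0.43). Without replicate 3 it was at 0.86, and without replicate 1 at -0.18. In NOMO-1 it stayed under 1 TPM, at 0.74 and 0.58 TPM in shALKBH5, against 0.36 and 0.19 TPM in shNS (0.38, adjusted p = 0.38). It passed the filter through MOLM-13 alone, and the NOMO-1 change passed only without MOLM-13 shALKBH5 replicate 1 or replicate 3 (adjusted p = 0.022 each). ZNF740, a zinc finger gene on the other strand that overlaps the end of ITGB7, stood at 11.8 and 12.6 TPM in MOLM-13 shALKBH5, against 27 and 25.5 TPM in shNS.

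ITGAE (chromosome 17, 3714628 to 3801243, minus strand) was low and passed in neither line. It stood at 6.79 and 7.98 TPM in NOMO-1 shALKBH5, against 7.1 and 8.5 TPM in shNS (-0.07, 95% interval -0.47 to 0.34, adjusted p = 0.78). In MOLM-13 it stood at 4.83 and 3.45 TPM in shALKBH5, against 4.93 and 4.88 TPM in shNS (-0.21, 95% interval -0.62 to 0.19, adjusted p = 0.35), close to the median of all genes there. The groups did not overlap in MOLM-13, and without replicate 1 the value was -0.41, resting on replicate 3 alone. The kinase gene HASPIN, listed under its older symbol GSG2, lies inside ITGAE on the other strand. It stood at 5.81 and 6.79 TPM in NOMO-1 shALKBH5, against 26.9 and 25.6 TPM in shNS, and at 3.29 and 3.7 TPM in MOLM-13 shALKBH5, against 10.3 and 10.7 TPM in shNS.

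On unscaled TPM all 10 members were higher in replicate 1 than in replicate 3 of MOLM-13 shALKBH5, by up to 1.99 on the log2(TPM + 1) scale (ITGA6). The median-of-ratios factors of these libraries, 0.849 and 0.651, place a typical gene higher in replicate 1 as well. The share of all genes higher in replicate 1 was not counted, so the 10 of 10 is no result about the members. On the unscaled values 3 of the 10 lay on opposite sides of the controls (ITGAL, by 0.01 above in replicate 1, ITGB2 and ITGB7). Also unscaled, ITGA5 and ITGA4 were nearly equal in these libraries, with differences from the controls of 1.03 and 0.99 for ITGA5 and -0.73 and -0.75 for ITGA4. The NOMO-1 shALKBH5 libraries differed from each other by at most 0.37 (ITGA4). Of the monocyte genes, LYZ stood at 19263 and 12121 TPM in MOLM-13 shALKBH5 replicates 1 and 3, against 9126 and 8493 TPM in MOLM-13 shNS, and S100A8 at 747 and 1089 TPM, against 1128 and 1118 TPM. CD14, with 1 knockdown library above the controls and 1 below, stood at 16.3 and 0.98 TPM in MOLM-13 shALKBH5, against 3.28 and 3.31 TPM in MOLM-13 shNS. Their part in the integrin values was not tested.

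**Figure D4:**
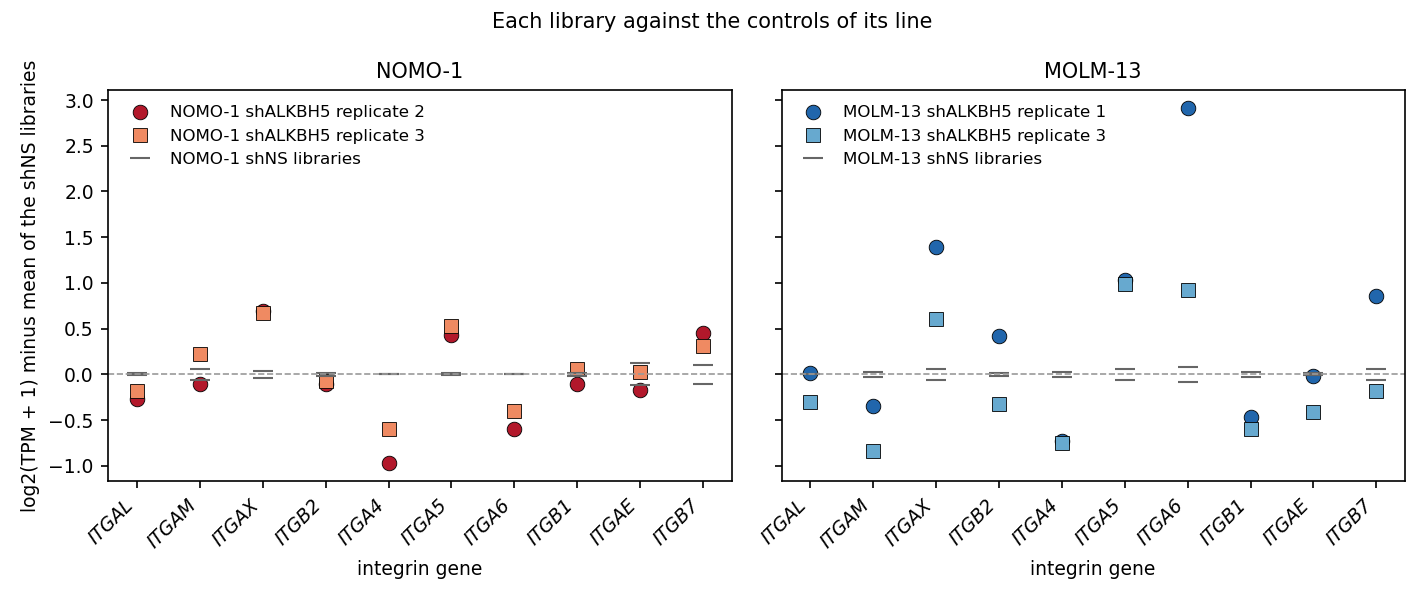
Difference of each library from the mean of the shNS libraries of its line, on the log2(TPM + 1) scale, for NOMO-1 (left) and MOLM-13 (right). In MOLM-13 the circles (replicate 1) lie above the squares (replicate 3) for every member on these unscaled values, by 1.99 for ITGA6.

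The control libraries show how far the integrin set differs between the lines without knockdown. Of the 10 members, 8 passed, 5 higher and 3 lower in NOMO-1 shNS than in MOLM-13 shNS, beside 59.8% of all genes tested (40.6% higher and 19.2% lower). With median-of-ratios scaling 4849 genes passed as higher and 4555 as lower, against 5812 and 2744 unscaled. The libraries did not overlap for any of the 10 members (7 higher and 3 lower), beside 89.5% of all genes (57.9% higher and 31.6% lower). All 4 beta1 group members were higher in NOMO-1 shNS: ITGA6 at 233 and 235 TPM, against 2.1 and 1.77 TPM in MOLM-13 shNS, was 121 times higher (log2 difference 6.33, SE 0.57, adjusted p = 0.00016). ITGA5 was 5.09 times higher (2.33, adjusted p = 4.5e-06), ITGB1 2.52 times (1.33, adjusted p = 8e-05) and ITGA4 2.19 times (1.12, adjusted p = 5e-04). ITGAE was 1.59 times higher (0.57, adjusted p = 0.025), a call that ended in 6 of 15 alternatives: with median-of-ratios scaling (0.31), with quantile scaling (0.33) and without any 1 of the control libraries (0.46 to 0.69). ITGB7, at 0.36 and 0.19 TPM in NOMO-1 shNS, against 19.4 and 21.2 TPM in MOLM-13 shNS, was lower (-4.07, SE 0.32, adjusted p = 8.6e-05). ITGB7 passed the filter through MOLM-13 alone, where it is high, so this call adds nothing to the levels. ITGAL was 8.35 times lower (-2.99, SE 0.12, adjusted p = 5.3e-06) and ITGAM 2.05 times lower (-0.96, SE 0.19, adjusted p = 0.0053). ITGB2 (0.54, adjusted p = 0.076) and ITGAX (0.43, adjusted p = 0.17) did not pass, although both did without MOLM-13 shALKBH5 replicate 1 or replicate 3. The median of all genes was 0.29 in this comparison and 0.02 with median-of-ratios scaling, which kept the calls of the other 7 members, which passed in all 15 alternatives.

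For the difference of knockdown effects between the lines, 2 of 10 members passed (ITGA5 and ITGB1, above), beside 34.6% of all genes tested (29.7% higher and 4.9% lower). The median difference of the members was -0.06, and that of all genes 0.42, or -0.02 with median-of-ratios scaling. With that scaling 2635 genes passed as higher and 2462 as lower, against 4245 and 701 unscaled, and 0 members passed as higher and 5 as lower. The number of members that passed also changed with the library left out. Such fits judge a lone library by the spread of the other groups, so their counts are no result about the members.

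RefSeq promoter entries (GRCh38.p14) were at hand for 7 of the 10 members, in 9 windows, and 5 are shown: ITGA5 and ITGA4, which moved in opposite directions in both lines, ITGA6 and ITGB7, whose levels separated the lines most, and ITGAM, the beta2 group member with an entry. Each is the part of the window that lies upstream of the outermost annotated start of the gene, on its own strand. They are chr12:54419461-54419516 (minus strand) for ITGA5, chr2:181457136-181457201 (plus) for ITGA4, chr2:172427086-172427335 (plus) for ITGA6, chr12:53207308-53207501 (minus) for ITGB7 and chr16:31259725-31259966 (plus) for ITGAM. Capitals mark matches, on either strand, to the ETS factor core GAGGAA, the GC box core GGGCGG or the AP-1 consensus TGANTCA, and no match to 1 motif overlapped a match to another.
ITGA5: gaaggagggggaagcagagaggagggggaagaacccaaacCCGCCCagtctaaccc
ITGA4: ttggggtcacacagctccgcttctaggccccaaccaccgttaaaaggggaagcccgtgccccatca
ITGA6: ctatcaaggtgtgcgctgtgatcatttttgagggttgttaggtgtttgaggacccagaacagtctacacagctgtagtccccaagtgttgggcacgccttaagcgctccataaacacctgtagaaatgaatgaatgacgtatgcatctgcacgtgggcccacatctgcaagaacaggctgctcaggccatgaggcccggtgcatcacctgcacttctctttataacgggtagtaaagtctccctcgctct
ITGB7: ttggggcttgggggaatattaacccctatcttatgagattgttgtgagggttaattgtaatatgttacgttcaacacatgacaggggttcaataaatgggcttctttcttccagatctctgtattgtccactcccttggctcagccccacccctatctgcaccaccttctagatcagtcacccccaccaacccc
ITGAM: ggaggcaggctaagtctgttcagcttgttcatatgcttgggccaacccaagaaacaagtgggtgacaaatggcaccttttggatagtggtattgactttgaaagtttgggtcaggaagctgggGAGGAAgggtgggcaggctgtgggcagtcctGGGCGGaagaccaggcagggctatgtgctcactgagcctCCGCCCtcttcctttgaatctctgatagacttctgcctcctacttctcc
Over the full 250 bases before each RefSeq start, GAGGAA was found in 4 of the 9 windows (ITGAM, ITGB1, ITGB7 and ITGAE), against 23.6% of all 35116 promoter windows. GGGCGG was in 4 of 9 (ITGAM, ITGB1, ITGA5 and the second ITGA6 window), against 42.6% of all windows, and TGANTCA in 0 of 9, against 6.57%. In ITGAM the ETS core began 127 bases before the start and the GC boxes 96 and 57 bases before it. The ITGA4 window and the outer ITGA6 window held none of the 3 motifs. A match describes letters in the window and not a bound site.

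The other integrin genes of the table were mostly low. Of 16 further subunits, 3 reached the filter, and the other 13 stayed at or below 1.11 TPM in every library, among them ITGB4, a partner of ITGA6, and ITGB3. ITGAV, the alpha chain of vitronectin receptors, stood at 13.8 and 15.7 TPM in NOMO-1 shALKBH5, against 9.65 and 9.33 TPM in shNS, and rose (0.58, adjusted p = 0.014). ITGA3, a laminin receptor chain, fell in NOMO-1 (-0.84, adjusted p = 0.0018) and stayed under 0.1 TPM in MOLM-13. ITGA7 fell in NOMO-1 (-1.11, adjusted p = 0.0019), at 5.6 and 5.83 TPM in shALKBH5, against 13.8 and 13.1 TPM in shNS. In MOLM-13 it was not low, at 14.4 and 19.4 TPM in shALKBH5, against 21.6 and 21.1 TPM in shNS. The alpha chain sums and shares above hold members only and leave ITGA7, ITGA3 and ITGAV out. In MOLM-13 none of ITGAV, ITGA3 and ITGA7 passed. The difference between the lines passed for ITGAV (0.77) and ITGA7 (-0.77).

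The list of activation genes holds genes that regulate integrin activation or bind integrin tails. It includes RAP1GAP2, which acts against Rap1, so its counts are not counts of activators alone. Of its 19 tested genes, 5 were higher and 2 lower in NOMO-1, and 2 were higher and 6 lower in MOLM-13. These are 26.3% and 10.5% of the list in NOMO-1, beside 28.6% and 15% of all genes, and 10.5% and 31.6% in MOLM-13, beside 10.6% and 31.2% of all genes. FERMT3 (kindlin-3), which binds the tails of beta chains in blood cells, rose in both lines. It stood at 212 and 202 TPM in NOMO-1 shALKBH5, against 129 and 129 TPM in shNS (0.67, adjusted p = 0.013), and at 130 and 95.2 TPM in MOLM-13 shALKBH5, against 42.8 and 45.6 TPM in shNS (1.31, adjusted p = 0.0014). FYB, an adaptor in the pathway from receptors to integrins, fell in both lines (-0.91 in NOMO-1, adjusted p = 0.0018, and -1.31 in MOLM-13, adjusted p = 0.00066). RAPGEF3, an activator of Rap1, was higher in NOMO-1 (1.68) and in MOLM-13 (0.52, adjusted p = 0.013). It stood under 1 TPM in every shNS library and passed the filter through the shALKBH5 groups alone. Its calls, the line difference named next among them, are therefore a description and no support. RAP1GAP2, which switches Rap1 off, rose in NOMO-1 (0.91) and fell in MOLM-13 (-0.69), and the difference passed (1.61, adjusted p = 0.0021), as did those of RAPGEF3 (1.16) and SKAP2 (1.22), which was at 0.64 in NOMO-1 and -0.58 in MOLM-13. Among inhibitors FLNA (-0.70) differed between the lines. Inhibitors had 1 higher and 0 lower of 6 in NOMO-1 (SHARPIN, 0.66) and 2 higher (FLNA at 1.02 among them) and 2 lower in MOLM-13, among them KRIT1 at -0.83, which binds the beta1 tail inhibitor ITGB1BP1.

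For the next lists, too, the counts stand beside 28.6% of all genes higher and 15% lower in NOMO-1, and 10.6% and 31.2% in MOLM-13. Downstream adhesion genes had 7 higher and 1 lower of 27 in NOMO-1, with the cytoskeletal linkers VCL at 0.94, PARVG at 0.79 and ACTN1 at 0.75. In MOLM-13 they had 4 higher and 5 lower, with the kinase FYN at -1.76, VAV3 at -1.07 and DOCK2 at -0.85. FYN fell in NOMO-1 as well (-0.53, adjusted p = 0.036) and ACTN1 rose in MOLM-13 as well (0.36, adjusted p = 0.02). FYN (1.23), VCL (0.98) and PARVG (0.69) differed between the lines. Ligands had 3 higher and 3 lower of 14 in NOMO-1 and 0 higher and 2 lower in MOLM-13. SPP1 (osteopontin), a ligand of ITGA4 and ITGAV integrins, fell by 1.35 on the log2(TPM + 1) scale in each line (adjusted p = 0.00084 in NOMO-1 and 0.00091 in MOLM-13). By mean TPM its fall was 4.85 times in NOMO-1, where it stood at 0.78 and 0.57 TPM in shALKBH5, against 3.34 and 3.21 TPM in shNS. In MOLM-13 it was 2.74 times, at 8.74 and 9.25 TPM in shALKBH5, against 27.2 and 22.1 TPM in shNS. ICAM5 fell in MOLM-13 (-0.59). LAMA1, a laminin chain, rose in NOMO-1 (1.22) and was listed at 0 in all MOLM-13 libraries. MADCAM1 stood at 1.32 and 1.32 TPM in NOMO-1 shALKBH5, against 0 and 0.29 TPM in shNS, and passed the filter through that group alone. Tetraspanins and other membrane partners had 4 higher and 2 lower of 14 in NOMO-1 and 4 higher and 3 lower in MOLM-13. CD82, a tetraspanin that associates with integrins, stood at 122 and 117 TPM in NOMO-1 shALKBH5, against 69.4 and 67 TPM in shNS, and at 52.8 and 45.5 TPM in MOLM-13 shALKBH5, against 12.9 and 13.3 TPM in shNS. It rose in both lines (0.80, adjusted p = 0.0018, and 1.83, adjusted p = 0.00021). CD63 also rose in both lines (1.13 in NOMO-1 and 0.51 in MOLM-13, adjusted p = 0.00089 and 0.014), TSPAN32 (1.03) rose in NOMO-1, and CD37 (-1.18) and CD9 (-0.93) fell in MOLM-13. The difference between the lines passed for CD37 (1.32), CD9 (1.16) and CD82 (-1.02). Selectins and their ligands had 2 higher and 4 lower of 8 in NOMO-1 (PODXL -1.12, GLG1 0.73, SELPLG 0.33) and 1 higher and 3 lower in MOLM-13 (ST3GAL4 -0.97, FUT7 -0.80, GCNT1 -0.65), of which all 3 also fell in NOMO-1 (-0.43, -0.29 and -0.43). The difference between the lines passed for GLG1 (0.71) and FUT7 (0.50). In NOMO-1 the medians of these 6 lists ran from -0.36 (selectins) to 0.36 (activation), against 0.16 for all genes, and in MOLM-13 from -0.32 (selectins) to 0.02 (inhibitors), against -0.18.

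Between the control libraries, NOMO-1 shNS minus MOLM-13 shNS, activation genes had 10 higher and 3 lower of 19 (RASGRP2 -2.08 and TLN2 1.85 among them), inhibitors 4 and 0 of 6 (ITGB1BP1 1.41, FLNA 1.29, KRIT1 1.07) and downstream genes 12 and 6 of 27 (TGFB1I1 2.88, ACTN1 1.79). Ligands had 4 higher and 6 lower of 14 (ICAM5 -3.89, SPP1 -2.58), membrane partners 5 and 2 of 14 (CD82 2.30, CD37 2.18) and selectins 3 and 3 of 8 (PODXL 2.62, GLG1 1.00, FUT7 -0.73). Of all genes, 40.6% were higher and 19.2% lower in this comparison. PTK2, focal adhesion kinase, stood at 0 and 0.02 TPM in NOMO-1 shNS, against 42.7 and 41.4 TPM in MOLM-13 shNS, and CD81, a tetraspanin partner of alpha4 beta1, was listed at 0 in both NOMO-1 shNS libraries, against 75.9 and 81.5 TPM in MOLM-13 shNS. FERMT1, the epithelial kindlin, was higher in NOMO-1 shNS, at 18.8 and 19 TPM, against 0.34 and 0.23 TPM in MOLM-13 shNS. TGFB1I1 and FERMT1 passed the filter through NOMO-1 alone, and ICAM5, PTK2 and CD81 through MOLM-13 alone. Each was thus tested only through the line where it is high, and its values between the controls are a description of levels. VCAM1 and CDH1, the ligands of ITGA4 and ITGAE, stayed under 0.5 TPM in all 8 libraries.

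Over the 8 libraries, and among 10459 genes that averaged 5 TPM or more, the genes most like ITGB2 by Pearson's r of log2(TPM + 1) were DHRS3 (0.995), SLC25A25 (0.987) and PAQR8 (0.986). Those most like ITGB1 were NDE1 (0.999), CHRNA5 (0.999) and HEBP2 (0.998). The libraries fall into 2 lines, so the ITGB1 values mostly describe a shared difference between lines. The genes most like ITGB2 also shared its split between MOLM-13 shALKBH5 replicates 1 and 3. DHRS3 stood at 11.53 and 0.51 TPM there, against 2.36 and 2.67 TPM in MOLM-13 shNS. SLC25A25 stood at 7.4 and 3.62 TPM, against 4.37 and 4.81 TPM, and PAQR8 at 28.11 and 13.15 TPM, against 17.17 and 17.79 TPM. All these values are given as a description.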

How the data were processed

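Poly(A) RNA of 8 libraries was sequenced, 2 in each of 4 groups, and the titles gave each sample its group and number. The authors deposited 1 table of TPM for 26830 gene symbols, and the total of a column is 1000000 but for rounding. The tools STAR and RSEM and the build GRCh38 come from the submitters' processing notes, without versions; the annotation and strand setting are not stated. Depth cannot be read from TPM, no counting interval is given, and as a share a TPM falls when other transcripts of the library rise. The column names carry the line, NS or E, and the replicate number, and E was taken as shALKBH5, since NS names the control.

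The 14302 genes that reached 1 TPM in 2 or more libraries were fitted with limma 3.58.1 in R 4.3.3 on log2(TPM + 1), a mean per group over all 8 libraries (4 residual and 2.29 prior degrees of freedom), intensity-trend moderation, two-sided tests and Benjamini-Hochberg adjustment. Fold changes on this scale understate the change of low genes. The spread is pooled over groups. The count model planned in case the table held counts did not apply. The script was tested on simulated data. Gene bodies come from GENCODE release 29 (GRCh38) and promoters from RefSeq (GRCh38.p14).

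The members and gene lists were chosen with earlier results of these data known. The genes named besides the members follow a rule: up to 3 genes with the smallest p past the threshold for each list and comparison; the other subunits at 1 TPM or more; and the 3 genes most like ITGB2 and ITGB1. Overlapping genes, ITGAD, ITGB3, ITGB4, VCAM1 and CDH1, FERMT3 in NOMO-1, the single marker genes, the monocyte sum without LYZ and the GC box and AP-1 motifs were added after the values were seen. The line differences of LAMA1, MADCAM1, ICAM5 and ITGA3 and the control fold of LAMA1 fall under the rule but were left out after their values were seen, since each gene passed the filter through 1 line. A few list and marker genes are not reported here. Alternatives were another pseudocount, other filters, median-of-ratios and quantile scaling, each line alone, no trend, each library left out and a replicate block.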

Additional observations from a re-analysis of the deposited data

Results flagged for a closer look

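The effect of the knockdown on ITGA5 differed between the lines by -0.53 on the log2 scale (NOMO-1 minus MOLM-13), in the test of the difference itself (limma adjusted p = 0.022). The gene was higher in 2 of 2 shALKBH5 libraries of each line. The effect on ITGB1 differed by 0.51 (adjusted p = 0.037), with 2 of 2 MOLM-13 shALKBH5 libraries below both controls and the NOMO-1 groups overlapping. With median-of-ratios scaling the ITGB1 difference was 0.00.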

How the results depend on the processing

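Among members that passed, ITGA4 in NOMO-1 and ITGA5 in MOLM-13 passed in all 16 alternatives and 7 of 8 between controls in all 15. In NOMO-1 the members higher and lower were 2 and 2 with quantile scaling, 2 and 3 with NOMO-1 alone, and 1 and 2 with median-of-ratios scaling. The genes lower in NOMO-1 were 3699 with median-of-ratios scaling, 3420 with quantile scaling and 3401 with NOMO-1 alone. In MOLM-13 the members higher and lower were 4 and 1 with median-of-ratios scaling, 4 and 0 with quantile scaling and 1 and 1 with MOLM-13 alone. The genes higher in MOLM-13 were 3483, 3485 and 532 in the same 3 settings, and those lower 2061 with MOLM-13 alone. For the difference, members higher and lower were 0 and 5 with median-of-ratios and 0 and 4 with quantile scaling, and genes lower 2462 and 2253, with 2635 genes higher under median-of-ratios scaling. Between controls 4555 and 4558 genes were lower with these scalings. The cause of these shifts was not tested.

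Leaving out 1 library at a time, with a lone library assumed to vary like the other groups, gave 0 to 3 members higher and 1 to 3 lower in NOMO-1, 1 to 5 and 0 to 6 in MOLM-13, 0 to 4 and 0 to 5 for the difference, and 4 to 7 and 3 between controls. Both extremes of 3 higher and 3 lower in NOMO-1 came with 1 MOLM-13 shALKBH5 library left out, whichever it was, and those of 5 higher and 6 lower in MOLM-13 without its shALKBH5 replicate 3 and replicate 1. Genes passing as higher and lower ranged over 2106 to 6232 and 1137 to 3526 in NOMO-1, 541 to 3285 and 2090 to 7435 in MOLM-13, 1392 to 8433 and 194 to 1945 for the difference and 4409 to 7409 and 1956 to 3780 between controls.

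Signs turned only for member values that had not passed. In NOMO-1 ITGAM was -0.13 with median-of-ratios and -0.11 with quantile scaling. Over left-out libraries it ran -0.10 to 0.22, ITGB1 -0.11 to 0.06 and ITGAE -0.18 to 0.05. In MOLM-13 ITGAL was 0.15 and 0.12 and ITGAE 0.03 and 0.07 with these scalings. Over left-out libraries ITGAL ran -0.30 to 0.01, ITGB2 -0.32 to 0.42 and ITGB7 -0.18 to 0.86. For the difference ITGB7 was -0.35 and -0.64 and ITGAE -0.28 and -0.31 with these scalings. Over left-out libraries ITGAX ran -0.71 to 0.08, ITGAL -0.23 to 0.07, ITGB2 -0.50 to 0.24, ITGA4 -0.23 to 0.14, ITGB7 -0.48 to 0.56 and ITGAE -0.05 to 0.34.

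MOLM-13 groups share the numbers 1 and 3 without a label that ties them, and the deviations of same-numbered MOLM-13 libraries correlated with r = 0.13 over 8804 genes, with 2 pairs. A replicate block in MOLM-13 gave 2 members higher in NOMO-1 (ITGAX added, adjusted p = 0.025) and 2 lower for the difference (ITGA6 added, adjusted p = 0.025). Between controls ITGB2 passed with it (adjusted p = 0.047). NOMO-1 alone could not be fitted for ITGB7, which its filter removes, nor a line alone for the difference and the controls. Low genes such as ITGB7 in NOMO-1 are limited by depth, which is unknown.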
